A study of Mus musculus with 8 samples.

Results

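Of the 76872 accessible regions in the atlas of a mouse stem cell ATAC-seq series, 2146 (2.79%, 95% Wilson interval 2.68 to 2.91) were shared by the ends of 2 or more protein-coding genes. Shared means that an overlap of 1 bp or more with the 1 kb zones around outer limits was found for 2 or more such genes, with histone genes left out. The outer limits of a gene are its outermost start and its far end. A further 13571 regions met the ends of 1 gene, and 61155 lay beyond 1 kb of any gene end and are called distal here. Shared regions therefore made up 13.7% (13.1 to 14.2) of the 15717 regions at gene ends. The rule used coordinates and gene models, and no measured level.

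ATAC-seq reads open chromatin through the insertion of sequencing adapters by the Tn5 transposase. The cells were induced pluripotent stem cells of a clonal mouse line with the FUCCI2 reporters, a pair of fluorescent proteins that follow the cell cycle. Their medium held FBS, LIF and 2i (a MEK and a GSK3 inhibitor), the feeders were irradiated, and 50000 cells went into each library, per the labels. The 8 libraries fell into 4 groups of 2 replicates each. Mitotic cells (0 h) were shaken off after 6 h in nocodazole at 200 ng/ml, which blocks the spindle. Other arrested cells were released into fresh medium for 1 h or 3 h, and asynchronous cells were left without nocodazole. The data analysed here were 1 list of region coordinates for the whole series. It has no value per library, so the depth is unknown, no region could be placed in a group, and it is not known in how many libraries a region was open.

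In mammalian genomes many neighbouring genes are transcribed away from each other out of a common stretch of DNA, called a divergent or bidirectional promoter. Such promoters are typically rich in CpG dinucleotides, often lack a TATA box, and are known for housekeeping genes such as those of DNA repair and of mitochondria. Other neighbours lie in tandem, with the end of one close to the start of the next, or converge end to end. Promoters are a main class of accessible sites in any cell, whereas the 3' ends of genes are more rarely accessible.

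The promoters of 6 gene pairs known for a common promoter are given as examples of sequence at or beside a shared region. Each window runs from 250 bases before to 50 bases after the start of the named gene, so that its start is base 251 of 300, and was taken from RefSeq (GRCm38.p6). These windows were chosen because the outer start of the partner gene falls inside them. Base 251 is the outer start of 4 of the genes, and lies 157 bp inside the outer start for Atm and 63 bp inside it for Col4a1. Brca1 (chr11:101551906-101552205, minus strand) encodes a factor of repair by homologous recombination, and its partner Nbr1, an autophagy receptor, starts opposite base 99. Atm (chr9:53536622-53536921, minus strand) encodes the kinase that signals DNA breaks, and Npat, a coactivator of histone genes, starts opposite base 33. Mrps12 (chr7:28741772-28742071, minus strand) encodes a protein of the small mitochondrial ribosomal subunit, and Sars2, the mitochondrial seryl-tRNA synthetase, starts opposite base 115. Ranbp1 (chr16:18248645-18248944, minus strand) encodes a binding protein of the Ran GTPase, and Trmt2a, a tRNA methyltransferase, starts opposite base 98. Tap1 (chr17:34187306-34187605, plus strand) encodes a subunit of the antigen peptide transporter, and Psmb9, a subunit of the immunoproteasome, starts opposite base 25. Col4a1 (chr8:11312777-11313076, minus strand) encodes a chain of basement membrane collagen, and Col4a2, a further chain of the same collagen, starts opposite base 272, since these genes overlap at their starts. Capitals mark matches, on either strand, to the 8 motifs described with the promoter sequences.
Brca1: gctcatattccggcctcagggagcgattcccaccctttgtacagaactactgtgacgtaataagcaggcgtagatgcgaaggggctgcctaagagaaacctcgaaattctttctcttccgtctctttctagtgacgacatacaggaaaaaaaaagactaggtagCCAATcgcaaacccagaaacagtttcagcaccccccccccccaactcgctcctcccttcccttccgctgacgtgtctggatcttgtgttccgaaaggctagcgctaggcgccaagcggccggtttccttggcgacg
Atm: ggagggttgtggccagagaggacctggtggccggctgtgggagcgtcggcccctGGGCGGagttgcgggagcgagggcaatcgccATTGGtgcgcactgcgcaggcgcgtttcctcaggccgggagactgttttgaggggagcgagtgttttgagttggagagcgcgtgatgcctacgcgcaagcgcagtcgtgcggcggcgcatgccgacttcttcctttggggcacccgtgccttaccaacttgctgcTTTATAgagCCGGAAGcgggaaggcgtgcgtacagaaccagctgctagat
Mrps12: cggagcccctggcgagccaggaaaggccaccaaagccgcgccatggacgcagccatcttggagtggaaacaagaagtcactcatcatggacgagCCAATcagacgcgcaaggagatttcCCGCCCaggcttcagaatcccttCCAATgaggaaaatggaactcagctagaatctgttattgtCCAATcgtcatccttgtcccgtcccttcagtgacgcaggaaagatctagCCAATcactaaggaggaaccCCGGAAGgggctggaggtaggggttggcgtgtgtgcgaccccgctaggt
Ranbp1: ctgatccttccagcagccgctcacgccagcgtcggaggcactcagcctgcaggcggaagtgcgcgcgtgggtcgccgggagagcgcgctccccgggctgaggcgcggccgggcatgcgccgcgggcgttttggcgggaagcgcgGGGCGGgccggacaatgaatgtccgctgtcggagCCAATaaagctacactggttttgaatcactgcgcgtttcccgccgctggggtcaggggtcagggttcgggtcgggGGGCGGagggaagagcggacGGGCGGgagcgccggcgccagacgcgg
Tap1: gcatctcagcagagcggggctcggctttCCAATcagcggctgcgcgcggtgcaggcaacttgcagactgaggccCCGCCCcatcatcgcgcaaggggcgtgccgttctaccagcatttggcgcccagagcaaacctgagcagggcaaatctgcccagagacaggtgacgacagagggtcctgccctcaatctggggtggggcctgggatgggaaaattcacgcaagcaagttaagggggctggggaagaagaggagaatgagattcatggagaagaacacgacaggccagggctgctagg
Col4a1: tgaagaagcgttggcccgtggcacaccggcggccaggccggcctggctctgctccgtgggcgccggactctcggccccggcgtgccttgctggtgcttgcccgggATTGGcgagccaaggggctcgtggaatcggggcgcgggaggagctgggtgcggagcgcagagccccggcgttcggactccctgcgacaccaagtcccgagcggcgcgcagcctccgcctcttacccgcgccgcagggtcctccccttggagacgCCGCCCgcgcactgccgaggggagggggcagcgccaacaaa

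The windows of Brca1, Atm, Mrps12, Ranbp1 and Tap1 lay inside their shared region over all 300 bases, and the window of Col4a1 over 59 bases. GC content ranged from 53.7% in the Brca1 window to 74.0% in the Col4a1 window. CpG dinucleotides numbered 42 in the Ranbp1 window and 15 in the Tap1 window. Each of the 6 windows held at least 1 match to CCAAT, with 4 in the Mrps12 window. In the Col4a1 window that match lay outside the shared region. These windows were picked, and CCAAT was in 44.1% of 1018 promoters at shared divergent regions and in 37.4% of all 32851 promoters. The Atm window held the sole match to TATAAA of the set, on the opposite strand and beginning at the start itself.

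The region at Brca1 and Nbr1 was 1339 bp wide (chromosome 11, 101551610 to 101552948) and covered both starts, which lie 152 bp apart. It was the widest of those found at 16 pairs from textbooks, of which 14 had at least 1 shared region. Paics and Ppat, both enzymes of purine synthesis, shared 1287 bp. Hspd1 and Hspe1, the mitochondrial chaperonin and its cochaperonin, shared 1225 bp. A region of 1113 bp covered the limits at which Prkdc, of DNA end joining, and Mcm4, of the replicative helicase, meet. Atm and Npat shared 971 bp. A region of 901 bp lay at Hars and Hars2, the cytosolic and mitochondrial histidyl-tRNA synthetases. Ranbp1 and Trmt2a had 828 bp, Tap1 and Psmb9 763 bp, and Mrps12 and Sars2 619 bp.

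The narrower textbook regions covered fewer of the starts. At Col4a1 and Col4a2 the region was 366 bp wide, covered the Col4a2 limit and lay 54 bp from the Col4a1 limit. The Surf1 and Surf2 region, 310 bp wide, covered the Surf2 limit and lay 187 bp from that of Surf1, an assembly factor of cytochrome oxidase. Tk1, the cytosolic thymidine kinase, and Afmid had a region of 277 bp that covered the Tk1 limit and lay 366 bp from the Afmid limit. Between Gart, an enzyme of purine synthesis, and Son, a splicing factor, the limits lie 852 bp apart, and the wider of their 2 shared regions (971 bp) covered the Son limit. Both pairs without a shared region have limits too far apart for one in this annotation. Rpa2 and Smpdl3b lie 11189 bp apart, with regions of 696 and 340 bp at their own starts. Acat2 and Tcp1 lie 17975 bp apart, with regions of 920 and 1297 bp at theirs.

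Across all shared regions, 2095 (97.6%) met 2 genes, 48 met 3 genes, 1 met 5 genes and 2 met 24 genes. Limits of 2 or more genes lay inside the region itself in 987 cases (46.0%), the limits of 1 gene in 631 (29.4%), and no limit in 528 (24.6%). A gene with a predicted name was needed to make 215 of them shared. The rule reaches 1000 bp. Just inside it were the regions at Rpp25l and Dctn3 (1000 bp from the farther limit), Ccdc85b and Fosl1 (997 bp) and Trim12c and Gm38525 (994 bp). Just outside were those at Amh and Jsrp1, Camk2n2 and Eef1akmt4, and Eml3 and Mta2, each 1002 bp from the farther limit.

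Shared regions were wide. Their median width was 656 bp (quartiles 373 and 895), against 502 bp (261 and 768) for regions at the ends of 1 gene and 247 bp (142 and 415) for distal regions. Among regions of 1000 bp or more, 12.3% were shared, and among those of 73 to 149 bp, 0.976%. Part of this follows from the rule, because a wider region reaches more zones. The lowest width in the atlas, 73 bp, was held by 33 shared regions (1.54%), 260 regions of 1 gene (1.92%) and 2761 distal regions (4.51%).

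The kind of gene ends that met went with the width. Strand was known where the RefSeq promoter table lists the gene, which was so for 17430 of 21820 genes (79.9%). Divergent start-to-start regions numbered 628 (29.3%) with a median of 753 bp, and start-to-start regions of genes whose spans overlap numbered 384 (17.9%) with a median of 758.5 bp. At 427 regions (19.9%) a start met an end, with a median of 564 bp. At 85 regions (3.96%) 2 far ends met, with a median of 285 bp. The remaining shared regions comprised 26 at starts on the same strand, 545 with a strand not known and 51 at 3 or more genes. For regions at 1 gene the medians were 559 bp at a start and 242 bp at an end. The ranges overlapped widely, with quartiles of 518 and 964 bp for divergent regions, against 309 and 805 bp at the start of 1 gene.

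**Figure D1:**
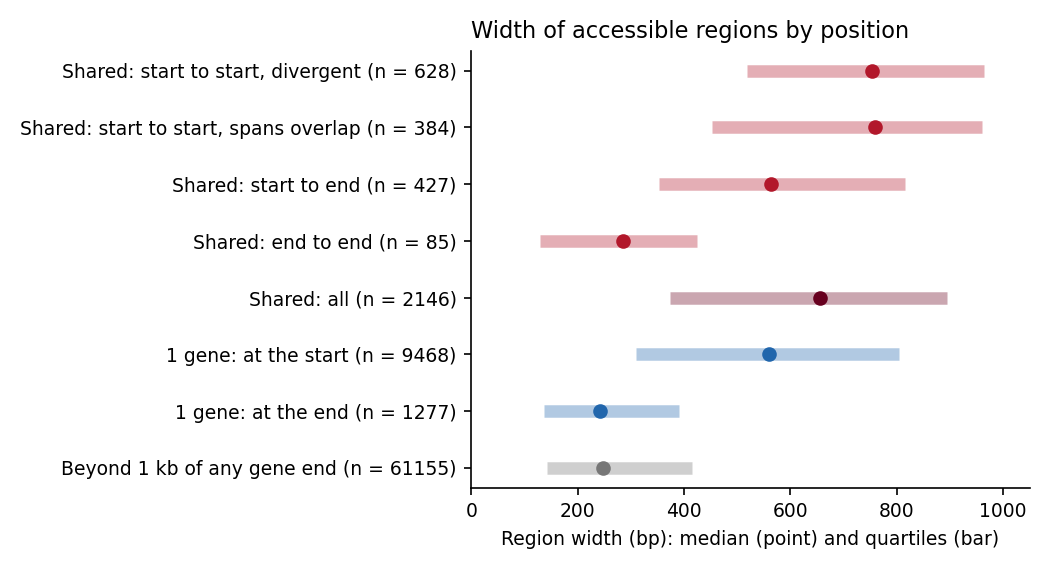
Widths of regions in bp by class, with the shared classes before the regions of 1 gene and the distal regions. Start-to-start regions had medians of 753 and 758.5 bp, end-to-end regions 285 bp and distal regions 247 bp.

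The 10 widest shared regions ran from 1714 to 1931 bp. The widest of all lay at Mepce, the capping enzyme of 7SK RNA, and Zcwpw1, a reader of histone methylation in meiosis (1931 bp, chromosome 5, 137785941 to 137787871). A region of 1930 bp covered the divergent starts of Atp6v1a, a subunit of the vacuolar proton pump, and Naa50, an N-terminal acetyltransferase, which lie 89 bp apart. Usp5, a deubiquitinase, and Cdca3, a factor for entry into mitosis, had 1900 bp. Mrpl40, of the mitochondrial ribosome, and Hira, a histone chaperone, had 1808 bp over starts 113 bp apart. Next came Dmtn and Fgf17 with 1799 bp, and Eif4a1, a helicase of translation initiation, with Senp3, a SUMO protease, at 1795 bp. The overlapping starts of Cep57, a centrosomal protein, and Fam76b had 1756 bp, and those of Hnrnpk, an RNA-binding protein, and Rmi1, a partner of the Bloom helicase, 1738 bp. Foxj3, a forkhead factor, and Frg2f1 had 1714 bp. The remaining one, of 1880 bp, met 2 genes with predicted names, LOC108167694 and Gm20783. Wide regions on the X chromosome included those at Gk and 5430427O19Rik (1237 bp), and at Ribc1 and Smc1a, a cohesin subunit (1164 bp).

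The narrowest shared regions, at 73 bp, included those near the divergent starts of Dcaf6 and Mpc2, Wfdc3 and Dnttip1, and Tafa3 and Ppm1j. Each of these 3 covered no gene limit. The Mpc2 start lay 275 bp away, the Dnttip1 start 401 bp and the Tafa3 start 544 bp.

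Seen from the genes, 3609 of 21820 protein-coding genes (16.5%) had a shared region at an end, and 13501 (61.9%) had any region at an end. A close pair is taken here as 2 genes with limits within 2 kb of each other, so that their zones touch. Of 4772 such pairs 2238 (46.9%) had a shared region. One cluster of overlapping genes supplied 276 of these pairs, and without it the share was 43.6% (42.2 to 45.1) of 4496 pairs.

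Arrangement separated the pairs clearly. Divergent pairs had a shared region in 568 of 629 cases (90.3%, 87.7 to 92.4), and start-to-start pairs with overlapping spans in 326 of 360 (90.6%, 87.1 to 93.2). Start-to-end pairs had one in 415 of 963 (43.1%, 40.0 to 46.2). End-to-end pairs had one in 108 of 1102 (9.80%, 8.18 to 11.7). This class did not require opposite strands and includes genes that overlap. Of 677 end-to-end pairs without overlap, 7.09% had one. For comparison, limits with no other gene limit within 2 kb had any region within 1 kb at 53.3% of 14119 starts and at 8.33% of 13874 ends. A start of a divergent pair had any region within 1 kb in 94.4% (93.0 to 95.6) of 1258 cases. For an end of an end-to-end pair this was 13.7% (12.3 to 15.2) of 2204. In these pairs 1 region can count for both limits, and the zone of a limit can hold the partner's limit too.

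Shares of divergent pairs varied little with distance up to 600 bp. Among divergent pairs the share was 97.6% at gaps of 0 to 100 bp, 96.2% at 101 to 300 bp, 97.0% at 301 to 600 bp and 90.3% at 601 to 1000 bp. It was 27.6% at 1001 to 2000 bp, where the rule itself leaves little room for a region to touch both zones. Start-to-end pairs stood at 51.8%, 65.0%, 64.4%, 67.6% and 17.2% over the same bins. End-to-end pairs stood at 17.1%, 13.0%, 6.88%, 9.58% and 4.52%. The 95% intervals of divergent and start-to-end pairs were apart in each of the 4 bins up to 1000 bp, and overlapped in the bin beyond.

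**Figure D2:**
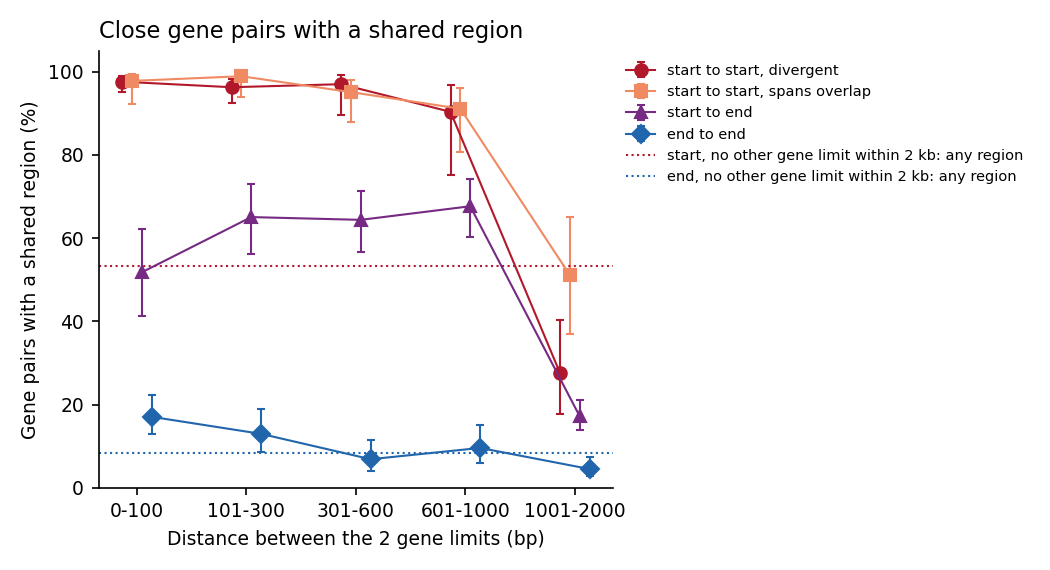
Share of close gene pairs with a shared region (%, with 95% Wilson intervals) against the distance between the limits in bp, by arrangement. Divergent pairs stay at 90.3% or above up to 1000 bp, and the dotted lines give any region at a start (53.3%) or end (8.33%) with no other gene limit nearby.

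In most divergent pairs a single region spanned both starts. This was so for 483 of 629 pairs (76.8%), and 25 pairs (3.97%) had a region of its own over each start. Another 81 pairs (12.9%) had a region over 1 start, 16 had a region nearby that covered neither, and 24 (3.82%, 2.58 to 5.61) had no region within 1 kb of either start. A spanning region was present in 92.7% of pairs at gaps of 0 to 100 bp, 88.7% at 101 to 300 bp, 66.7% at 301 to 600 bp and 22.6% at 601 to 1000 bp, and in 0 of 58 pairs at 1001 to 2000 bp. Separate regions over each start were seen in 0 pairs up to 300 bp, in 1.52% at 301 to 600 bp, 29.0% at 601 to 1000 bp and 25.9% beyond. The median width of the widest shared region was 775 bp, 852 bp, 855.5 bp, 765.5 bp and 662 bp over the 5 bins. Its midpoint lay a median of 111 bp from the middle of the starts at gaps of 0 to 100 bp and 118 bp at 101 to 300 bp. More than 1 shared region was found at 87 of the 568 pairs (15.3%).

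**Figure D3:**
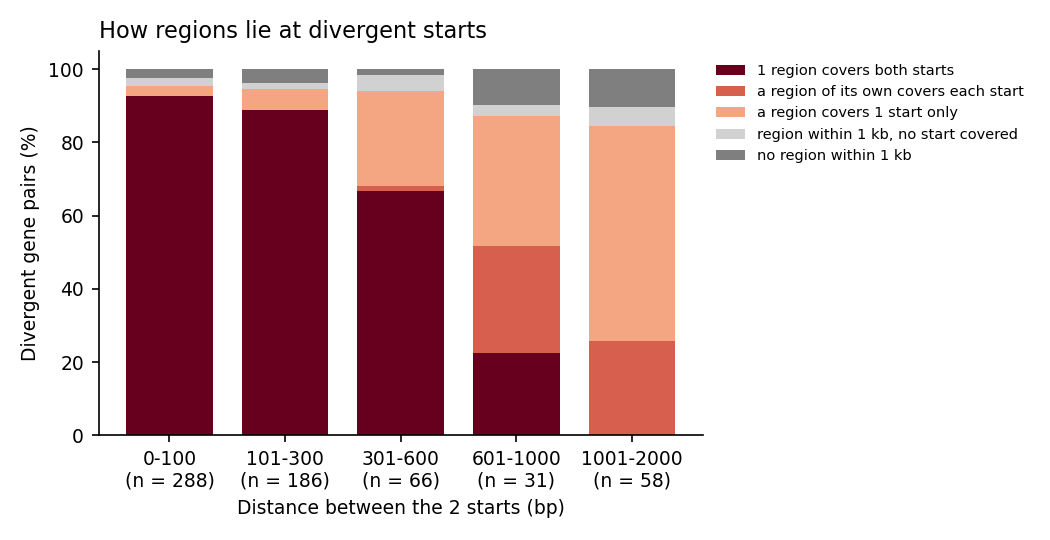
State of divergent gene pairs (% of pairs) by the distance between their starts in bp. A region over both starts is found in 92.7% of pairs at 0 to 100 bp and in 22.6% at 601 to 1000 bp.

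The 24 divergent pairs without a region included genes of restricted tissues. Cd3g and Cd3d encode chains of the T cell receptor complex and start 1338 bp apart. Reg3d and Reg3a encode secreted lectins of gut and pancreas, Mup15 a major urinary protein, and Olfr181 and Olfr183 olfactory receptors. Smc1b, the meiotic form of a cohesin subunit, and Ribc2 start 103 bp apart, and Ifit1 and Ifit1bl2, interferon-induced genes, 62 bp apart. Rps2, a ribosomal protein gene expressed in all cells, and Rnf151 start 64 bp apart and were also without a region. These pairs were picked out after their values were seen. For contrast with the windows of Brca1, Atm and the others, those of Smc1b (chr15:85131908-85132207, minus strand) and Cd3d (chr9:44981536-44981835, plus strand) follow, in the same notation.
Smc1b: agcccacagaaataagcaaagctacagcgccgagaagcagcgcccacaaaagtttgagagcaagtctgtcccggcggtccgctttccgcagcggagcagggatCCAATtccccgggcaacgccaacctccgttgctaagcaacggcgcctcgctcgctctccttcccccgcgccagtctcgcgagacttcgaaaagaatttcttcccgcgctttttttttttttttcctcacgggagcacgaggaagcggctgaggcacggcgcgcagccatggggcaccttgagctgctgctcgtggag
Cd3d: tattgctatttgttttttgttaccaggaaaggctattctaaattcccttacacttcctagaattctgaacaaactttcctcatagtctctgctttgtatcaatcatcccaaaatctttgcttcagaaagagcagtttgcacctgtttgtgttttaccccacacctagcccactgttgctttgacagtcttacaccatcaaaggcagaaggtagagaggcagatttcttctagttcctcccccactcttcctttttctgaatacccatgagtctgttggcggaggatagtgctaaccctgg

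The Smc1b window had 60.0% GC and 29 CpG dinucleotides, within the range of the 6 windows at a shared region. The Cd3d window had 42.3% GC, 1 CpG dinucleotide and no match to any of the 8 motifs.

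Where a start met a neighbour's end, the region sat at the start. The midpoint was nearer to the start at 367 of 427 such regions (85.9%, 82.3 to 88.9). Relative to that start the midpoint lay a median of 19.5 bp into the gene (quartiles -125 and 191), against 80.5 bp (-87.0 and 333) for regions at the start of 1 gene. The widest of this kind with named genes, beside Eif4a1 and Senp3, were Cox6b2 with Fam71e2 (1562 bp), Prr14 with Fbrs (1510 bp), and Qars, the glutaminyl-tRNA synthetase, with Qrich1 (1465 bp). At the last of these the region covered the Qrich1 start and lay 552 bp from the end of Qars.

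End-to-end regions were few and narrow. The widest, of 1227 bp, lay between the ends of Nfe2l3, a transcription factor of the NRF family, and Hnrnpa2b1, an RNA-binding protein, 218 bp from each. Zfp57, a zinc finger protein that maintains imprints, and Mog, a myelin protein, had 965 bp, at 812 and 801 bp from their ends. Duox1 and Shf had 852 bp, Atp6v1fnb and Kcp 839 bp, and Prn and Prnd, of the prion gene family, 774 bp. The ends of Prn and Prnd are given at the same base. Of these 5 regions, the one at Duox1 and Shf covered a limit, that of Shf.

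A few regions met many genes. Regions of 310 and 224 bp on chromosome 18 met the ends of 24 genes, since the genes of the protocadherin gamma cluster, which encode neuronal adhesion proteins, end at a common stretch. A region of 661 bp on chromosome 17 (47687698 to 47688358) met 5 genes, Gm20517, Usp49, Tomm6, Frs3 and Prickle4. Cyb5d1, Naa38 and Tmem88 met at 1205 bp on chromosome 11, and Trappc13, Shld3 and Trim23 at 1180 bp on chromosome 13. That on chromosome 13 covered 3 starts, of genes for a vesicle-tethering subunit, a shieldin subunit and an ubiquitin ligase.

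DNA repair and mitochondrial genes had a shared region more often than protein-coding genes at large. Each share is the part of a list's genes that had a shared region, to be read beside 16.5% of all protein-coding genes. Lists also differed in how many of their genes stood in a close pair at all, which was 32.1% over all genes. They differed too in any region at an end, found at 61.9% of all genes. It was found at 98.4% of DNA repair, 96.2% of mitochondrial ribosome, 95.1% of cytosolic ribosomal protein and 90.2% of proteasome genes, and at 2.88% of olfactory receptor genes. Among the 13501 genes with any region at an end, 26.7% had a shared one. Of the lists with a share above that of all genes, mitochondrial ribosome, DNA repair and oxidative phosphorylation had intervals wholly above 26.7%. The intervals of tRNA synthetases, splicing, chaperones, proteasome, DNA replication, cytosolic ribosomal proteins, RNA decay, mitosis and protocadherins included it. The lists were chosen with earlier results of these data known and carry no test.

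Genes of the mitochondrial ribosome had a shared region in 40 of 78 cases (51.3%, 40.4 to 62.1), with 64.1% in a close pair. After Mrpl40 the widest was at Mrpl18 (1297 bp, with Tcp1, a subunit of the cytosolic chaperonin), while Mrpl1 had none. The region at Mrpl18 covered the Tcp1 start and lay 858 bp from the Mrpl18 start. DNA repair genes followed with 30 of 62 (48.4%, 36.4 to 60.6) and 69.4% in a close pair. After Brca1 the widest was at Fancf, of the Fanconi anaemia core complex (1313 bp, with Gas2), and Bard1, the partner of Brca1, had none. Oxidative phosphorylation stood at 40 of 90 (44.4%, 34.6 to 54.7), with Cox6b2 (1562 bp) and Cox11 (1216 bp, with Stxbp4) widest and Atp5g1 without one. The tRNA synthetases had 15 of 37 (40.5%, 26.3 to 56.5), led by Yars (1470 bp, with S100pbp) and Qars (1465 bp), and Aars2 had none. Without pairs of overlapping genes, the mitochondrial ribosome had 33.3% (23.9 to 44.4), against 11.2% of all genes.

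Splicing genes had 22 of 61 (36.1%, 25.2 to 48.6), among them Srsf7 (1443 bp, with Gemin6, a subunit of the SMN complex), and Lsm10 had none. Chaperones had 28 of 82 (34.1%, 24.8 to 44.9), led by Hsp90b1, of the endoplasmic reticulum (1303 bp, with Ttc41), and Tcp1, and Cct2 had none. In the proteasome list 17 of 51 (33.3%, 22.0 to 47.0) had one, with Psme2 (1258 bp, with Rnf31) and Psma4 (991 bp) widest and Psma1 without. DNA replication had 16 of 48 (33.3%, 21.7 to 47.5), with Cdc45 (1375 bp, with Ufd1) and Lig1 (1263 bp, with Zswim9) widest and Cdc6 without. The region at Lig1 covered the Zswim9 start and lay 938 bp from the Lig1 start. Cytosolic ribosomal protein genes had 25 of 81 (30.9%, 21.9 to 41.6), with Rpl7 (1305 bp) and Rpl41 (1070 bp) widest and Rpl10 without. The region at Rpl41 covered the end of that gene and the start of Zc3h10. RNA decay had 9 of 32 (28.1%, 15.6 to 45.4), with Exosc8 (1076 bp) and Xrn1 (899 bp) widest and Cnot1 without, and its interval includes the share of all genes. Without pairs of overlapping genes, DNA replication had 7 of 48 (14.6%, 7.25 to 27.2), an interval that includes the share of all genes under that setting, 11.2%. Chaperones then had 22.0% (14.4 to 32.1). With all gene types counted, cytosolic ribosomal protein genes had 51.9% and all protein-coding genes 24.0%.

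Mitosis genes had any region at an end in 46 of 46 cases, and a shared one in 11 (23.9%, 13.9 to 37.9). This interval includes the share of all genes and the 26.7% of genes with any region at an end. The widest were at Cdc26, of the anaphase-promoting complex (1316 bp, with Prpf4), and Kif20a, a mitotic kinesin (1031 bp, with Brd8), and Anapc1 had none. Protocadherins had 24 of 69 (34.8%, 24.6 to 46.6), led by Pcdha4 (731 bp) and Pcdha7 (422 bp), with Pcdh1 at none. The regions at Pcdha4 and Pcdha7 are shared with genes of predicted names, Gm37013 and Gm38667, and without predicted names 21 of 69 (30.4%) had a shared region. Without the genes that meet at the common ends of the gamma cluster, these predicted genes among them, the share of the remaining 48 protocadherins was 0.0%. It was also 0.0% when pairs of overlapping genes were not counted.

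Lower shares than that of all genes were found for families of regulators and of differentiated tissues, but with all gene types counted the side turned for the regulators, at 26.2% of zinc finger genes and 25.5% of Hox, Fox and Sox genes, against 24.0% of all protein-coding genes. Zinc finger genes had a shared region in 64 of 450 cases (14.2%, 11.3 to 17.8), an interval that includes the share of all genes, and 87.1% had any region at an end. Among them Zfp524 (1714 bp, with Fiz1) and Zfp646 (1605 bp, with Zfp668) were widest, with Zbtb10 at none. Hox, Fox and Sox genes had 9 of 102 (8.82%, 4.71 to 15.9), with Foxj3 and Foxa3 (1201 bp, with Sympk) widest and Foxa1 without. Collagens had 3 of 44 (6.82%, 2.35 to 18.2), and this interval too includes the share of all genes. Keratins had 2 of 109 (1.83%, 0.505 to 6.44), Krt17 and Krt42 at 1 common region of 361 bp. Among 1110 olfactory receptor genes 1 had one (0.0901%), Olfr94, whose end lay near that of Ubd by a region of 390 bp. Krt1 and Olfr1 had none. Keratins stood at 0.0% with a reach of 500 bp, and collagens between 2.27% and 11.4% over the alternatives. Close pairs held 1.71% of olfactory receptor, 10.1% of keratin, 22.9% of zinc finger, 24.5% of Hox, Fox and Sox and 31.8% of collagen genes. Over all genes this was 32.1%. Of the zinc finger genes in a close pair, 62.1% had a shared region, against 51.5% of all such genes. It was 36.0% for Hox, Fox and Sox, 21.4% for collagens, 18.2% for keratins and 5.26% for olfactory receptors.

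Of 10 pluripotency markers 9 had any region at an end and 0 had a shared region (interval up to 27.8%). Of 10 fibroblast markers, the other cell type of the culture, 3 had any region and 0 a shared one. Of these markers, 1 for pluripotency and 0 for fibroblasts stood in a close pair. The position of these genes thus left little room for a shared region. The interval of either list includes the share of all genes.

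**Figure D4:**
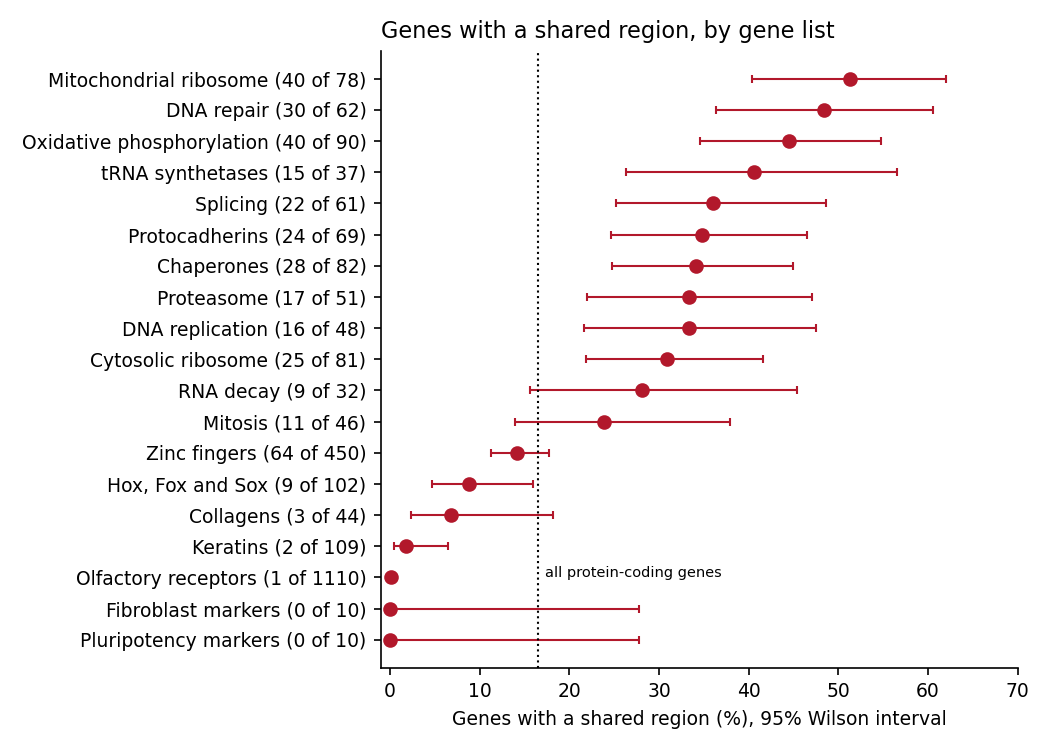
Share of genes with a shared region (%, with 95% Wilson intervals) for the 19 gene lists, beside the 16.5% of all protein-coding genes. Mitochondrial ribosome (51.3%) and DNA repair (48.4%) stand highest and olfactory receptors (0.0901%) among the lowest.

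Genes with a shared region had a median length of 15.3 kb (quartiles 6.78 and 33.4), against 17.8 kb (5.45 and 47.5) for other genes. By chromosome, the shared fraction of regions was highest on 11 (221 of 4718, 4.68%), 7 (4.54%), 19 (4.47%) and 17 (4.19%). It was lowest among those with any on 13 (1.39%) and was 1.77% on X, while Y had 0 of 171. Close pairs numbered 431 on 11 and 102 on 13. For 11, 7, 19, 17, 13 and X the share of close pairs with a shared region differed less. It was 46.2% on 11, 44.1% on 7, 48.6% on 19, 48.0% on 17, 47.1% on 13 and 41.5% on X. Over all chromosomes with close pairs it ran from 33.8% on 1 to 67.0% on 18, which holds the protocadherin gamma cluster. The next highest was 53.6% on 12.

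Promoters at shared divergent regions were rich in GC and CpG. In the 300-base windows of 1018 such promoters the median GC content was 62.3%, against 61.3% for 7295 promoters at a region of 1 gene, 46.7% for 6095 without a region and 52.7% for all 32851 of the table. The observed over expected CpG ratio had a median of 0.854 at divergent regions, against 0.753 at regions of 1 gene, 0.181 without a region and 0.384 in the whole table. Quartiles of the ratio were 0.725 and 0.976 at divergent regions, against 0.570 and 0.900 at regions of 1 gene, so the sets overlapped. Promoters whose start met a neighbour's end had a median ratio of 0.718.

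Of the 8 motifs, ETS had the widest gap in percentage points between divergent promoters and promoters at regions of 1 gene. It was searched as CCGGAAG, the TATA box as TATAAA, the GC box as GGGCGG, the CCAAT box as CCAAT, the E box as CACGTG, the NRF1 core as CGCATGCG, the CRE as TGACGTCA and the YY1 motif as AAGATGGCG, on both strands. The ETS and YY1 letters can overlap through AAG. A match is a description of letters and not of binding. ETS letters were in 29.6% (26.8 to 32.4) of divergent promoters, against 15.6% (14.8 to 16.4) at regions of 1 gene, 2.33% without a region and 8.86% of the whole table. Over all 2300 promoters at shared regions the share was 26.9%, with 25.6% where start-to-start spans overlap and 24.0% where a start met an end. With 1 promoter per region the divergent share was 28.5%. This guards against counting a site under both genes of a pair, whose windows overlap. Even so, a divergent window can also hold the start of the partner gene, and the part this plays was not tested. In divergent promoters the share was 29.5% at regions under 500 bp and 29.6% at wider ones, against 11.9% at narrower and 17.3% at wider regions of 1 gene. YY1 letters were in 6.48% (5.13 to 8.17) of divergent promoters, against 2.74% (2.39 to 3.14) at regions of 1 gene and 1.40% of the table. TATA letters went the other way, with 4.42% (3.32 to 5.86) of divergent promoters, against 6.96% (6.40 to 7.57) at regions of 1 gene, 24.7% without a region and 13.6% of the table. With 1 promoter per region the divergent TATA share was 4.97% (3.44 to 7.14), and at regions of 500 bp or wider it was 4.30% (3.16 to 5.83), against 6.11% (5.47 to 6.81) at wider regions of 1 gene. In both cases the intervals of divergent promoters and of promoters at regions of 1 gene overlapped.

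The other motifs were closer between the classes. GC boxes were in 70.6% of divergent promoters, against 67.3% at regions of 1 gene and 35.7% of the table. CCAAT boxes were in 44.1% of divergent promoters, against 40.8% at regions of 1 gene and 37.4% of the table. NRF1 letters were in 5.50% of divergent promoters, against 4.04% at regions of 1 gene and 1.87% of the table. E boxes were in 11.2% of divergent promoters, against 10.3% at regions of 1 gene and 7.15% of the table. CRE letters were in 3.63% of divergent promoters, against 3.37% at regions of 1 gene and 1.79% of the table. For these 5 motifs the intervals of divergent promoters and of promoters at regions of 1 gene overlapped.

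**Figure D5:**
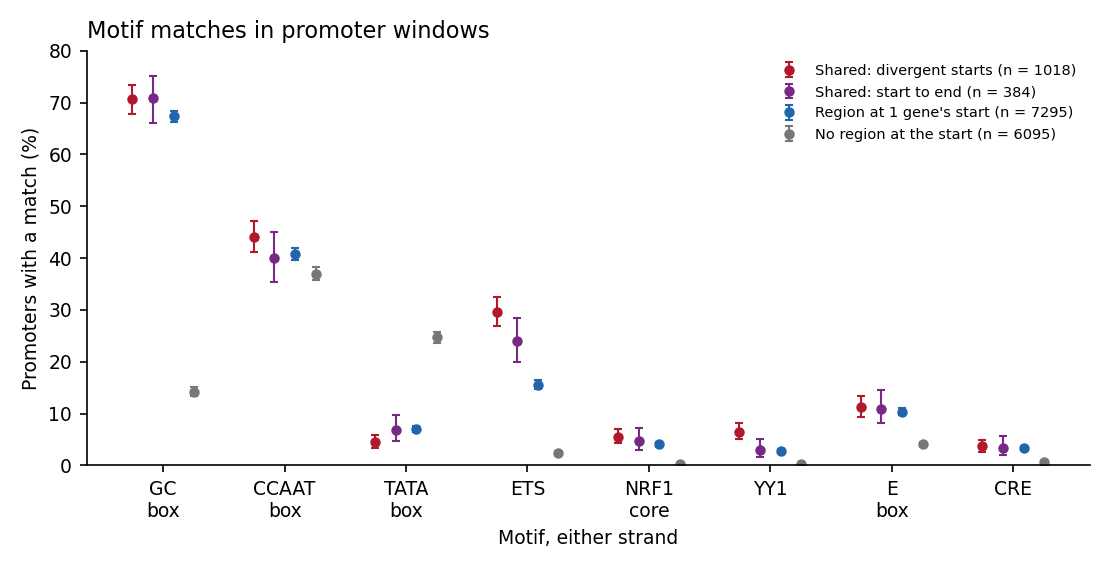
Share of promoters (%, with 95% Wilson intervals) that hold each motif, by class of region at the start. ETS letters are in 29.6% of divergent promoters and in 15.6% at regions of 1 gene, and TATA letters in 4.42% of divergent promoters and in 6.96% at regions of 1 gene.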

How the data were processed

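The authors deposited 1 list of regions for the whole series, with a chromosome, a start counted from 0 and an end, and 0 columns of values per sample. Coordinates are given here from 1. Per the submitters' processing notes, the tools were MACS2 2.1.1, Bowtie2, cutadapt, bedtools, Picard and SAMtools, with the build GRCm38 (mm10). Parameters, any shift of reads for Tn5, blacklist filters and the merging of libraries were not given in the sources used here. In the labels, the molecule field reads total RNA, against ATAC-seq in the titles and protocol, and the labels do not say whether replicates were separate cultures.

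Outer limits of 21820 protein-coding genes (67 histone genes left out) came from RefSeq, GRCm38.p6, and strand from its promoter table, for 17430 of them. Overlaps and shares were computed in Python 3.11.15 (numpy 2.4.6, pandas 2.3.3), and the overlap code was tested on 20 simulated sets with 0 disagreements with a direct count. Shares carry 95% Wilson intervals, which reflect counting error alone. No test was run, since regions and genes are not replicates, and no comparison of groups was possible. Members and lists were chosen with earlier results of these data known. Named were the textbook pairs, the 10 widest regions, the 5 meeting the most genes, the 5 widest end to end, the narrowest 3, the widest 3 on X, and per list the 2 genes with the widest region and 1 without. Any other gene was named with its values already known, and 3 regions that this rule names are not reported here.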

Additional observations from a re-analysis of the deposited data

How the results depend on the processing

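No paired analysis was possible because the list holds no value per library. In each alternative run, start-to-start pairs (3 kinds together, 89.9% under the 1 kb rule) had a shared region most often and end-to-end pairs least often. A reach of 500 bp made 2.05% of regions shared, with median widths of 743 bp (shared) and 571 bp (1 gene), 83.8% of start-to-start, 28.2% of start-to-end and 3.54% of end-to-end pairs, and 13.6% of genes. A reach of 2 kb gave 4.12%, 563.5 bp, 435 bp, 95.7%, 66.3%, 22.8% and 21.9% for the same quantities. Requiring no less of the region inside each zone than outside it gave 2.49% of regions, 86.9%, 35.2% and 7.17% of pairs, and 15.2% of genes. Regions of 150 bp or wider gave 3.37% of regions, 695.5 bp and 568 bp, 7.89% of end-to-end pairs and 16.0% of genes. All gene types gave 5.90% of regions, 617 bp and 411 bp, 79.0% of start-to-start and 36.0% of start-to-end pairs, and 24.0% of genes. Without predicted gene names, 2.51% of regions were shared and the median at 1 gene was 513 bp. Not counting pairs of overlapping genes gave 1.86% of regions, 7.09% of end-to-end pairs and 11.2% of genes. Limits within 500 bp gave 96.1%, 62.2% and 13.9% of pairs, and within 1000 bp 95.8%, 63.6% and 12.1%. Of all 70 such comparisons of main values, 41 moved out of the 95% interval of the reported value and 29 did not, and the cause was not tested.

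Over 8 alternatives, 16 of the 19 gene lists stayed on their side of the share of all genes. Zinc finger genes (26.2%) and Hox, Fox and Sox genes (25.5%) rose above all genes (24.0%) when all gene types were used. Protocadherins fell to 0.0% without pairs of overlapping genes, and without the genes of the regions that meet the most genes, an alternative chosen after seeing the data. With no depth or level per library, how firmly each region was called cannot be given.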

Other observations

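Ends of long non-coding RNA genes lay within 1 kb of 88 of 2146 shared regions (4.10%, 95% Wilson interval 3.34 to 5.02), against 1761 of 13571 regions at 1 protein-coding gene (13.0%, 12.4 to 13.6) and 5.11% of distal regions. Ends of microRNA genes lay there for 22 shared regions (1.03%, 0.678 to 1.55), against 0.671% (0.547 to 0.823) at 1 gene and 0.203% of distal regions. Transfer RNA genes stood at 0.373% of shared regions, against 0.354% at 1 gene and 0.368% of distal regions.

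No other atlas region lay within 10 kb of 29.3% of shared regions, against 29.5% of regions at 1 gene and 38.9% of distal regions.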
